A study of Mus musculus with 13 samples.

Results

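The Hox genes code for homeodomain transcription factors and lie in 4 chromosomal clusters. All genes with a symbol of a cluster letter and a paralog number were taken, which gave 39 of the 32285 genes in the files. They comprise 11 Hoxa genes (chromosome 6, 52155590 to 52260880), 10 Hoxb genes (chromosome 11, 96194316 to 96368256), 9 Hoxc genes (chromosome 15, 102921103 to 103036852) and 9 Hoxd genes (chromosome 2, 74668310 to 74765142) in GRCm38, the assembly also called mm10. Their messages were followed in epithelial barcodes and in immune barcodes of 10 colon tumors and 3 samples of adjacent colon mucosa from C57BL/6J mice. Every mouse carried ApcMin/+, which gives intestinal tumors, together with p16cis/cis, an allele that draws DNA methylation to the p16 promoter, and every mouse received the supplemented diet, so that the data hold neither a wild-type nor a control-diet sample. Mouse A (24 weeks) gave tumors 5 to 8 and mucosa 2, mouse B (23 weeks) gave tumors 9 and 10 and mucosa 3, and mouse C (20 weeks) gave tumors 1 to 4 and mucosa 1. Tumors were dissociated with a tumor dissociation kit and mucosa with EDTA and TrypLE, so that tissue and dissociation cannot be told apart. The place along the colon from which each piece was taken is not given in the sources used here.

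Along each cluster, Hox genes are switched on in an order that follows their position, low paralog numbers in anterior structures and high numbers in posterior ones, and adult gut epithelium keeps a regional Hox pattern. Hox proteins bind DNA with TALE partners of the Meis and Pbx families. Polycomb complexes keep silent Hox genes off, MLL and trithorax complexes keep active ones on, and retinoic acid and the related Cdx factors act upstream of the clusters in the embryo.

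After removal of barcodes with few UMIs (unique molecular identifiers, each standing for a captured molecule), few genes or many mitochondrial UMIs, 118892 barcodes remained. Barcodes with at least 10 UMIs of Epcam, Krt8 and Krt18 together and no Ptprc were called epithelial. There were 16136 in tumors (1144 to 2161 per library) and 16111 in mucosa (2613, 7808 and 5690), with summed depths of 20696005 to 39344373 UMIs per tumor and 68821549 to 96157536 per mucosa library. All 8 epithelial markers were found in every epithelial sum. Immune barcodes, with a Ptprc UMI and at most 2 keratin and Epcam UMIs, numbered 56365 in tumors and 4506 in mucosa. No pair of libraries shared more than 0.391% of the barcodes of the smaller library. The labels call 7 of the 13 libraries female, yet each library held 1 to 10 Xist UMIs and 6949 to 12845 UMIs of 4 Y-linked genes. The sex labels were therefore not used. Values below are in CPM, the usual depth-scaled unit, in which a gene's UMIs are divided by the summed UMIs of the same barcodes of that library. The kit reads the 3' end of each molecule, so CPM is per molecule and not per length.

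Hoxb8 and Hoxd4 were both lower in tumors than in mucosa. Hoxd11 and Hoxd13 were both high in the same tumors and low in the others. The stretches before the transcription starts of these 4 members are shown. They are the 250 bases before the start from RefSeq (GRCm38.p6), all on the plus strand, and capitals mark the letters TTTATG or their reverse complement, the core bound by Cdx factors. The windows are chr11:96281655-96281904 for Hoxb8, chr2:74721728-74721977 for Hoxd4, chr2:74679308-74679557 for the upstream start of Hoxd11 and chr2:74667975-74668224 for Hoxd13.
Hoxb8: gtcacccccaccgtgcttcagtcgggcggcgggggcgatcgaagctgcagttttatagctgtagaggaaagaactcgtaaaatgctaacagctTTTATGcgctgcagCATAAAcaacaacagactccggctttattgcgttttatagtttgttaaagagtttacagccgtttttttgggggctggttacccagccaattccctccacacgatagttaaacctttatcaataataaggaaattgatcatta
Hoxd4: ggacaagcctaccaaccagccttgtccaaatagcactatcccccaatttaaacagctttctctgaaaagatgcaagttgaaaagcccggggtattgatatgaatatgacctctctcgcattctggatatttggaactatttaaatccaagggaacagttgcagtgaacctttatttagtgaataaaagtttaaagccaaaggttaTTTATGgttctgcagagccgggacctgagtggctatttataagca
Hoxd11: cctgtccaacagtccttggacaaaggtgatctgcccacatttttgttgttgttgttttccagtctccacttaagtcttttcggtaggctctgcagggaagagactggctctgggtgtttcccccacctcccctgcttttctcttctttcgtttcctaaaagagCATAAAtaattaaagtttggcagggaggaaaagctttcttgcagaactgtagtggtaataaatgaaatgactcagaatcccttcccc
Hoxd13: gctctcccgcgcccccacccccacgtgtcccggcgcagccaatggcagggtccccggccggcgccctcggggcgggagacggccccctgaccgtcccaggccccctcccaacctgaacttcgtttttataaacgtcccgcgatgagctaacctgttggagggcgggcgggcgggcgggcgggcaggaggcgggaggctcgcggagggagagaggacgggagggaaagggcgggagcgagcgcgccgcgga
Hoxb8 held the letters at 2 positions, Hoxd4 and Hoxd11 at 1 each, and Hoxd13 at none. Hoxd13 had 31 CG pairs in its window, against 12 in Hoxb8, 3 in Hoxd4 and 2 in this window of Hoxd11. The window of the other Hoxd11 start, chr2:74682073-74682322, had 20 CG pairs and no TTTATG on either strand. Of the 39 genes, 22 had an entry, with 24 starts in all, and 5 of the 24 windows (20.8%) held TTTATG on either strand, against 10.8% of all 32851 promoter windows. The letters CTTTGA, the core bound by TCF and LEF factors of the Wnt pathway, were in 3 of the 24 windows (12.5%) and in 13.8% of all windows on either strand. A match of letters is a description and not a bound site.

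In tumor epithelium Hoxb3 to Hoxb8 were lower than in mucosa, Hoxa9 was higher, and Hoxd9 to Hoxd13 were high in some tumors and near 0 in others. The quasi-likelihood test of edgeR, with tumors against mucosa over all genes, could be run on 26 of the 39 members. Of these, 6 were higher in tumors, 12 were lower and 8 did not pass. Without mucosa 2 or without mucosa 3 the number higher was 2 of 26, where 4558 of all 15764 and 4500 of all 15758 genes were higher. Without tumor 2 it was 3 of 25 (5186 of all 15380 genes). With the tumors of each mouse summed and the mouse as a block it was 11 of 27 (4938 of all 16431 genes). Over all 15476 genes tested, 63.3% passed, 33.3% higher and 30% lower, so that the share of Hox genes that passed was close to the background, and the directions are read gene by gene. All 10 tumors lay below all 3 mucosa libraries for 7 members (13.3% of all genes did so) and above them for 2 (31.7% of all genes). The median log2 fold change was -0.19 over the 26 members and 0.03 over all genes. In bulk sums, fewer cells that express a gene and less RNA per cell cannot be told apart. The summed level of all 39 genes was 376 to 410 CPM in mucosa and 398 to 624 CPM in tumors.

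**Figure D1:**
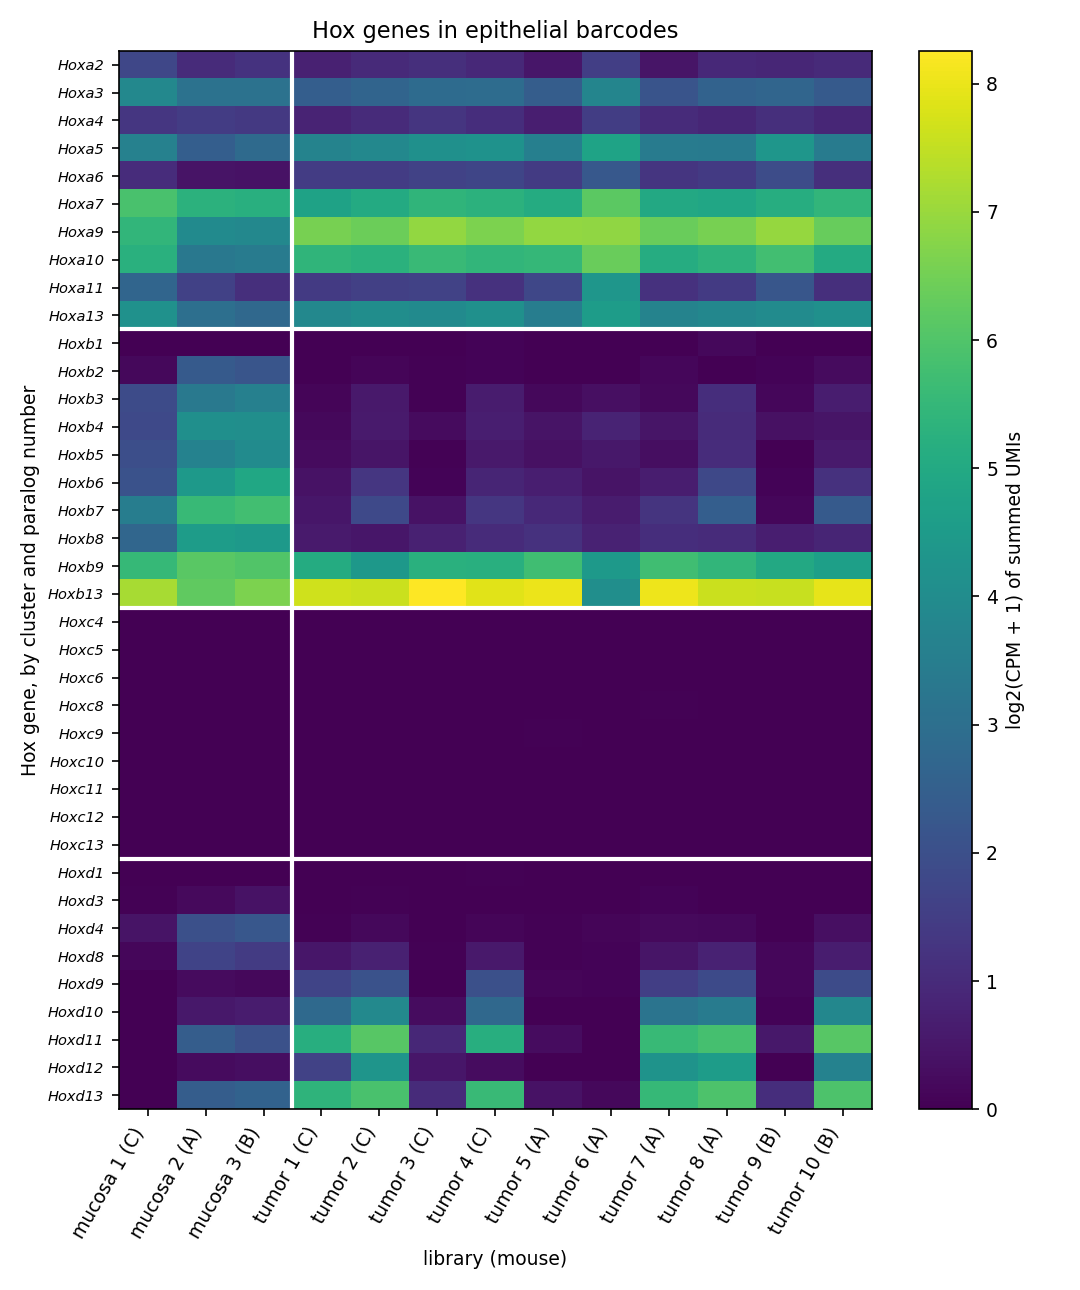
Level of the Hox genes (rows, by cluster and paralog number) in epithelial barcodes of each library (columns, mouse in brackets), as log2(CPM + 1) of summed UMIs. Hoxb13 and Hoxa9 were the brightest rows in tumors, Hoxb2 to Hoxb8 were dark in every tumor, and Hoxd11 and Hoxd13 were bright in 6 of the 10 tumors.

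The Hoxb genes fell as a block from Hoxb3 to Hoxb8. Hoxb7 stood at 10.3, 46.2 and 52.8 CPM in mucosa 1, 2 and 3, and at a lowest value of 0.0966, a median of 1.14 and a highest value of 4.48 CPM in the tumors. Every mucosa library lay above every tumor, and the fold change was -4.73 on the log2 scale (SE 0.67, adjusted p = 4.44e-05, edgeR). Hoxb8 was at 5.55, 22.5 and 21.3 CPM in mucosa and 0.422 to 1.26 CPM in tumors (log2 fold change -4.55, SE 0.32, adjusted p = 2.14e-07). The tumors did not overlap the mucosa for Hoxb8 either.

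The neighbours of Hoxb8 on the anterior side behaved alike. Hoxb4, which is known for its role in blood stem cells, was at 2.51, 16.4 and 16.1 CPM in mucosa and 0.142 to 1.02 CPM in tumors (log2 fold change -4.89, SE 0.46, adjusted p = 1.86e-06). For Hoxb5 the mucosa values were 2.92, 11.6 and 14.8 CPM, and the tumor with the highest value had 1.06 CPM (-5.01, SE 0.59, adjusted p = 9.57e-06). Hoxb6 stood at 3.25, 20.5 and 29.3 CPM in mucosa and between 0.0483 and 2.49 CPM in tumors (-4.70, SE 0.68, adjusted p = 5.2e-05). Hoxb3 was at 2.73, 9.01 and 11.2 CPM in mucosa and at most 1.11 CPM in tumors (-4.71, SE 0.61, adjusted p = 2.12e-05). All tumors lay below all mucosa libraries for each of these genes, and mucosa 1 was the lowest of the mucosa libraries. Hoxb2 had 9, 388 and 341 UMIs in mucosa and 0 to 4 UMIs in each tumor. It did not pass the filter on low counts and was not tested. Hoxb1 had no UMI in mucosa, 2 in tumor 4, 3 in tumor 8 and none in the other tumors.

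The posterior members of the Hoxb cluster, Hoxb9 and Hoxb13, stayed at 16.1 CPM or more in every tumor. Hoxb13, the most posterior of the cluster and a mark of the hindgut, had the highest level of all Hox genes. It stood at 144, 74.6 and 98.4 CPM in mucosa 1, 2 and 3, and at 16.1, 219 and 305 CPM as the lowest, median and highest tumor. In 9 of 10 tumors Hoxb13 was higher than in the mucosa of the same mouse, yet the difference did not pass (210 ± 78.1 CPM, SD, n = 10, against 106 ± 35.2, n = 3, log2 fold change 0.76, SE 0.53, adjusted p = 0.224). The exception was tumor 6, with 351 Hoxb13 UMIs where the other tumors had 3858 to 11388, and without tumor 6 the difference passed (0.90, SE 0.21, adjusted p = 0.0024). With the tumors of each mouse summed and the mouse as a block, the adjusted p for Hoxb13 was 0.00669. Hoxb9, which lies between Hoxb8 and Hoxb13, was at 45.2, 70.5 and 64.2 CPM in mucosa and 20 to 52 CPM in tumors with a median of 34.7. Hoxb9 fell by 1.02 on the log2 scale (SE 0.25, adjusted p = 0.00267) and was below the mucosa of the same mouse in all 10 tumors.

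**Figure D2:**
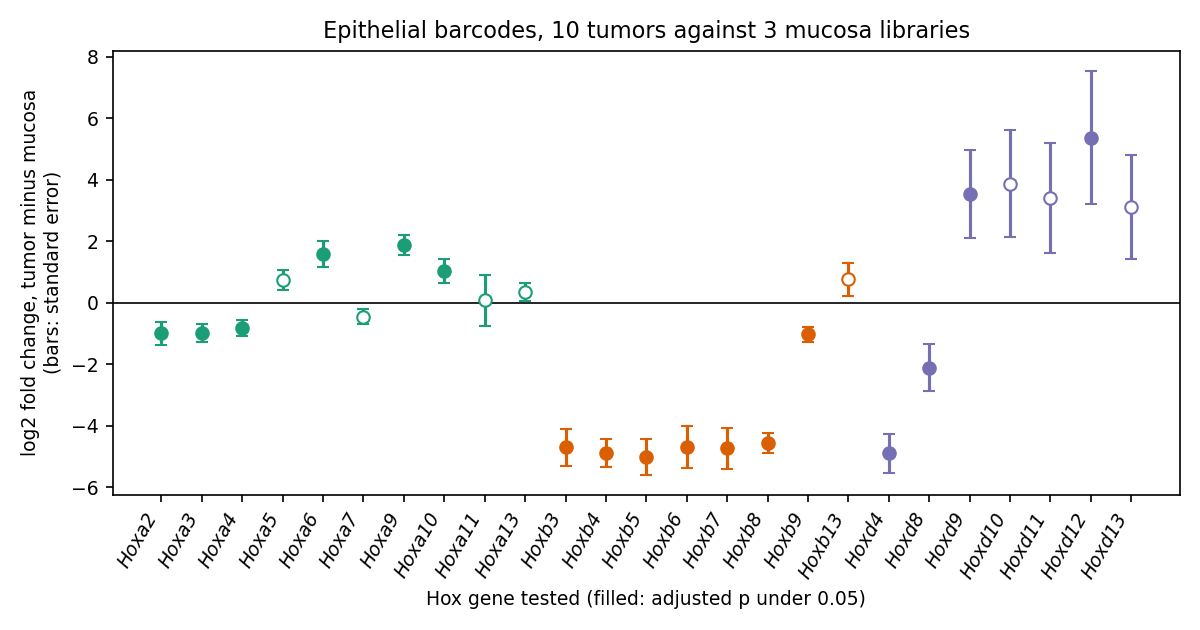
Log2 fold change of tumor against mucosa in epithelial barcodes for Hox genes tested, with standard errors, for 10 tumors and 3 mucosa libraries. Hoxb3 to Hoxb8 lay between -5.01 and -4.55 with small errors, whereas Hoxd9 to Hoxd13 lay above 3 with errors of 1.42 to 2.17.

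Against mucosa, the Hoxd genes divided at Hoxd8 and Hoxd9. The posterior ones divided the tumors, and Hoxd8 followed them over the tumors at a low level. Hoxd13, needed for digits and the end of the hindgut, was at 0, 4.35 and 5 CPM in mucosa 1, 2 and 3. In tumors 1, 2, 4, 7, 8 and 10 it was at 40.7, 58.3, 47, 45.5, 61.2 and 60.8 CPM, and in tumors 3, 5, 6 and 9 at 1.02, 0.314, 0.137 and 1.11 CPM. Each mouse had tumors of both kinds. The tumors lay on both sides of mucosa 2 and 3 and all above mucosa 1, and 7 of 10 were above the mucosa of the same mouse. The mean difference of Hoxd13 did not pass (31.6 ± 27.5 CPM, SD, n = 10, against 3.12 ± 2.72, n = 3, log2 fold change 3.11, SE 1.69, adjusted p = 0.121). Hoxd11 was high and low in the same tumors, with 35.2 to 68.9 CPM in the 6 high libraries and 0 to 0.883 CPM in the other tumors (3.41, SE 1.80, adjusted p = 0.113). Hoxd10 was at 5.9 to 13.9 CPM in those 6 tumors, at most 0.214 CPM in the other tumors and 0, 0.449 and 0.53 CPM in mucosa (adjusted p = 0.0634). It passed by DESeq2, in the cycling gate, without the top 5% of barcodes by UMIs, and with tumor 3, 5, 6 or 9 left out. With any other library left out Hoxd10 did not pass.

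Hoxd12 and Hoxd9 did pass. Hoxd9 was high and low in the same tumors as Hoxd13, whereas Hoxd12 was at 0.203 CPM in tumor 4, below tumor 3 (0.428 CPM) and within the range of the mucosa. Hoxd12 ranged from 0 to 22.4 CPM in tumors, with a median of 1.24, and was at 0, 0.178 and 0.25 CPM in mucosa (log2 fold change 5.37, SE 2.17, adjusted p = 0.0435). For Hoxd9 the tumors ranged from 0 to 3.23 CPM around a median of 2.05, against 0.0145, 0.188 and 0.135 CPM in mucosa (3.53, SE 1.42, adjusted p = 0.0425). Both calls were lost with the mouse as a block (adjusted p = 0.0585 for Hoxd12 and 0.0679 for Hoxd9), in the stem gate (adjusted p = 0.0529 and 0.0865) and in Hoxb13 barcodes (3.92, adjusted p = 0.106, and 1.80, adjusted p = 0.268). Leaving out a single library ended the call of Hoxd12 in 7 of 13 cases and that of Hoxd9 in 9 of 13. With the tumors of each mouse summed and the mouse as a block, Hoxd9, Hoxd10, Hoxd11, Hoxd12 and Hoxd13 all passed, with adjusted p from 0.0014 for Hoxd12 to 0.0413 for Hoxd13. Each such sum joins tumors with high and low levels, so that the spread between them does not enter these p-values.

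The makeup of the Hoxd9 to Hoxd13 UMIs differed between tumors. Among the 6 tumors with high levels, Hoxd11 gave 36.7% to 43.8% and Hoxd13 gave 36.0% to 51.4% of these UMIs. Hoxd12 gave 11.5%, 14.8%, 14.8% and 7.43% in tumors 2, 7, 8 and 10, but 2.38% in tumor 1 and 0.222% in tumor 4, where 8 of 3596 UMIs were Hoxd12. Tumors 1 and 4 came from mouse C, as did tumor 2.

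Hoxd4 and Hoxd8 went the other way against mucosa. Hoxd4 was at 0.363, 3.03 and 3.68 CPM in mucosa and 0 to 0.256 CPM in tumors, with no overlap (log2 fold change -4.90, SE 0.64, adjusted p = 2.19e-05). Its exons share 388 bases with those of Hoxd3 on the same strand, so that its counts are uncertain in that stretch. Hoxd8 was at 0.116, 2.13 and 1.73 CPM in mucosa and 0.0268 to 0.738 CPM in tumors (-2.12, SE 0.76, adjusted p = 0.0254). It was below the mucosa of the same mouse in 7 tumors, but 3 of 4 tumors of mouse C were above theirs (mean 0.407 against 0.116 CPM). Over the 10 tumors Hoxd8 followed Hoxd13 (Pearson r = 0.96). Mucosa 1 lay within the range of the tumors for Hoxd8, and its call was lost with the mouse as a block (adjusted p = 0.0784), with the tumors of each mouse summed (adjusted p = 0.185), without mucosa 2 (adjusted p = 0.151), without mucosa 3 (adjusted p = 0.0947) and without goblet gate barcodes (adjusted p = 0.0843). In Hoxb13 barcodes the change of Hoxd8 was -0.20 (adjusted p = 0.873). Hoxd3, with 3, 14 and 31 UMIs in mucosa and 0 to 2 in tumors, and Hoxd1, with at most 2 UMIs in a library, were too low to be tested.

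**Figure D3:**
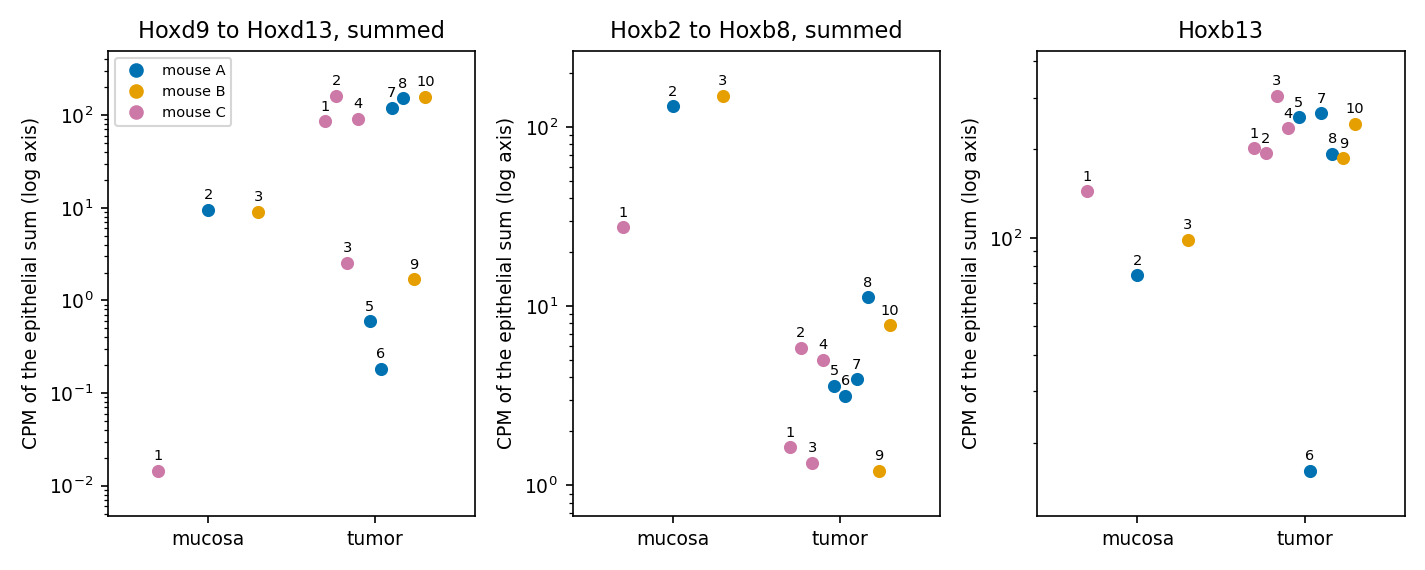
Summed level of Hoxd9 to Hoxd13 (left), of Hoxb2 to Hoxb8 (middle) and of Hoxb13 (right) in epithelial barcodes, in CPM on log axes. Each point is a library with its number, coloured by mouse. Hoxd9 to Hoxd13 were at 86.6 to 162 CPM in 6 tumors and at 0.183 to 2.54 CPM in 4, Hoxb2 to Hoxb8 were lower in every tumor than in every mucosa library, and tumor 6 alone was low in Hoxb13.

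Summed over Hoxd9 to Hoxd13, tumors 1 to 10 stood at 86.6, 162, 2.54, 91.4, 0.594, 0.183, 120, 152, 1.69 and 157 CPM. Mucosa 1, 2 and 3 were at 0.0145, 9.54 and 9.08 CPM. No tumor lay between 2.54 and 86.6 CPM, and the gap held within each mouse. The sums of Hoxb2 to Hoxb8 were 27.4, 130 and 149 CPM in mucosa and 1.21 to 11.2 CPM in tumors. Over the tumors of the 3 mice, none of 25 Hox genes tested differed between mice in an edgeR F test (lowest unadjusted p = 0.139, for Hoxa11), where 0.381% of all genes did.

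The Hoxa genes were present in every library and moved less. Hoxa9, a gene that is often high in leukemia, was at 41.9, 14.3 and 13.6 CPM in mucosa 1, 2 and 3 and at 80, 95.8 and 123 CPM as the lowest, median and highest tumor. All tumors lay above all mucosa libraries (101 ± 17.7 CPM, SD, n = 10, against 23.3 ± 16.2, n = 3, log2 fold change 1.88, SE 0.31, adjusted p = 0.000166). Within the mice, the tumors averaged 103, 102 and 98.6 CPM of Hoxa9 in mice A, B and C, against 14.3, 13.6 and 41.9 CPM in their mucosa. Hoxa6 showed the same order at a low level, with 1.05, 0.345 and 0.333 CPM in mucosa and 1.15 to 3.8 CPM in tumors (1.59, SE 0.41, adjusted p = 0.00419). Hoxa10 was at 37.2, 8.94 and 9.77 CPM in mucosa and 32.4 to 81.1 CPM in tumors (1.04, SE 0.39, adjusted p = 0.0321), so that mucosa 1 lay among the tumors, although all 10 tumors lay above the mucosa of the same mouse. Without mucosa 2 or without mucosa 3 the call of Hoxa10 was lost, and DESeq2 gave no p for it. Without mucosa 1 the changes were 2.60 for Hoxa9, 2.31 for Hoxa6 and 2.01 for Hoxa10.

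Hoxa2, Hoxa3 and Hoxa4, the anterior members, fell slightly. Hoxa3 was at 13.5, 7.64 and 7.6 CPM in mucosa and 3.45 to 12.4 CPM in tumors, with a median of 5.17 (log2 fold change -0.98, SE 0.30, adjusted p = 0.0104). The change was -0.99 for Hoxa2 (SE 0.37, adjusted p = 0.031) and -0.82 for Hoxa4 (SE 0.25, adjusted p = 0.0111). Leaving out mucosa 1 ended the calls of Hoxa2 and Hoxa3, and scaling by library totals alone ended those of Hoxa2 and Hoxa4. Hoxa5 (0.73, adjusted p = 0.0678), Hoxa7 (-0.45, adjusted p = 0.12), Hoxa11 (0.08, adjusted p = 0.944) and Hoxa13 (0.35, adjusted p = 0.294) did not pass. Hoxa7 was at 57.5, 38.2 and 36.3 CPM in mucosa and at 26.3 to 71.4 CPM in tumors, with a median of 33.5, so that the groups overlapped. Hoxa5 was at 11.3, 4.58 and 6.3 CPM in mucosa and 9.6 to 26.4 CPM in tumors, above the mucosa of the same mouse in all 10. Hoxa5 passed with the tumors of each mouse summed and the mouse as a block (adjusted p = 0.0271), by DESeq2 (adjusted p = 0.0418) and without mucosa 1 (1.15, adjusted p = 0.0158). Hoxa13 passed without mucosa 1 (0.95, adjusted p = 0.00368). All tumors of mice A and B lay above their own mucosa for Hoxa13 (means of 14.6 against 7.05 CPM and 15.8 against 5.96 CPM), and all 4 of mouse C lay below theirs (15.1 against 17.1 CPM).

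Tumor 6, from mouse A, stood apart from the other tumors for several Hoxa genes. Hoxa9 was not one of them, as its highest tumor was from mouse B (123 CPM, against at most 121 CPM in mouse A). Hoxa11 was at 19.3 CPM in tumor 6 and at 1.15 to 3.62 CPM in the other 9 tumors. Hoxa7 was at 71.4 CPM against at most 42.1 CPM, Hoxa10 at 81.1 against at most 52.9 CPM, and Hoxa3 at 12.4 against at most 6.63 CPM. At the same time tumor 6 had 16.1 CPM of Hoxb13 and 0.183 CPM of Hoxd9 to Hoxd13 together. Its Hoxa genes summed to 358 CPM and its Hoxb genes to 40.2 CPM, where the other tumors had 175 to 259 and 218 to 343 CPM. Without tumor 6, Hoxa7 passed as lower in tumors (-0.59, SE 0.17, adjusted p = 0.00856) and Hoxa11 turned from 0.08 to -0.84 (adjusted p = 0.0872).

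The Hoxc genes were at or near the detection limit in the epithelium. Hoxc4, Hoxc5, Hoxc6, Hoxc8 and Hoxc9 had 0 or 1 UMI in each epithelial sum, and Hoxc10, Hoxc11, Hoxc12 and Hoxc13 had none. None could be tested.

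The makeup of the epithelial barcodes differed between the tissues. The 5 goblet markers summed to 12256 to 27169 CPM in mucosa and 966 to 8077 CPM in tumors, the 4 stem cell markers to 65.7 to 92.2 and 145 to 366 CPM, and the 3 Paneth markers to 3.39 to 33.9 and 503 to 4954 CPM. The 5 absorptive markers were at 468, 8858 and 8754 CPM in mucosa 1, 2 and 3 and at 109 to 535 CPM in tumors, so that mucosa 1, which also stood apart in its Hox genes, lay within the range of the tumors. The 3 enteroendocrine markers were at 210 to 359 CPM in mucosa and 3.14 to 40.3 CPM in tumors. Neutrophil markers reached 201 to 764 CPM in tumor and 5.77 to 20.2 CPM in mucosa epithelium, all 3 detected in every tumor. In barcodes with at least 3 UMIs of Lgr5, Ascl2, Smoc2 and Axin2 (the stem gate), Hoxb2 to Hoxb8 stood at 44.4, 174 and 194 CPM in mucosa and 1.25 to 11.5 CPM in tumors, and Hoxd9 to Hoxd13 were at 86.9 to 163 CPM in the same 6 tumors and 0.234 to 2.64 CPM in the other 4. In barcodes of the goblet or absorptive gate outside the stem and cycling gates, Hoxb2 to Hoxb8 were at 12.2, 75.5 and 89.7 CPM in mucosa and 0 to 7.48 CPM in tumors. Hoxb2 to Hoxb8 were thus below every mucosa library in every tumor within both kinds of barcodes. Without goblet gate barcodes, 5 Hox genes were higher and 10 lower of 25 tested, where 5162 of all 15288 genes were higher and 4489 lower. The calls of Hoxa10 (0.89, adjusted p = 0.0897), Hoxa2 (-0.56, adjusted p = 0.229) and Hoxd8 were lost there, and Hoxb13 passed (1.53, adjusted p = 0.0273). In epithelial barcodes with no UMI of 5 immune genes, 5 Hox genes were higher and 11 lower of 24 tested, where 4922 of all 14954 genes were higher and 4453 lower.

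Within the mucosa, Hoxb13 and the Hoxb2 to Hoxb8 genes were together in fewer barcodes than independence gives (224, 269 and 289 barcodes in mucosa 1, 2 and 3, against 419, 1003 and 957). Among barcodes with a Hoxb13 UMI, 13.6%, 14.6% and 19% had a UMI of Hoxb2 to Hoxb8 in mucosa 1, 2 and 3, against 45.6%, 66.8% and 79.1% of barcodes without Hoxb13. Hoxd9 to Hoxd13 UMIs were in 26.2% and 27.6% of the Hoxb13 barcodes of mucosa 2 and 3, and in 0.905% and 0.455% of the others. Mucosa 1 had a single barcode with such a UMI. Barcodes with both Hoxd9 to Hoxd13 and Hoxb2 to Hoxb8 numbered 72 in mucosa 2, where independence gives 292, and 66 in mucosa 3, where it gives 276. Thinned to 2000 UMIs per barcode, which left out 54, 111 and 36 shallower barcodes, Hoxb2 to Hoxb8 were in 1.04%, 2.1% and 2.46% of Hoxb13 barcodes and in 5.8%, 22.7% and 27.2% of the others. Likewise thinned, Hoxd9 to Hoxd13 were in 7.81% and 5.32% of the Hoxb13 barcodes of mucosa 2 and 3. They were in 0.892% and 0.691% of the others, a narrower gap than with all UMIs. These are shares of barcodes within a library and carry no test.

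**Figure D4:**
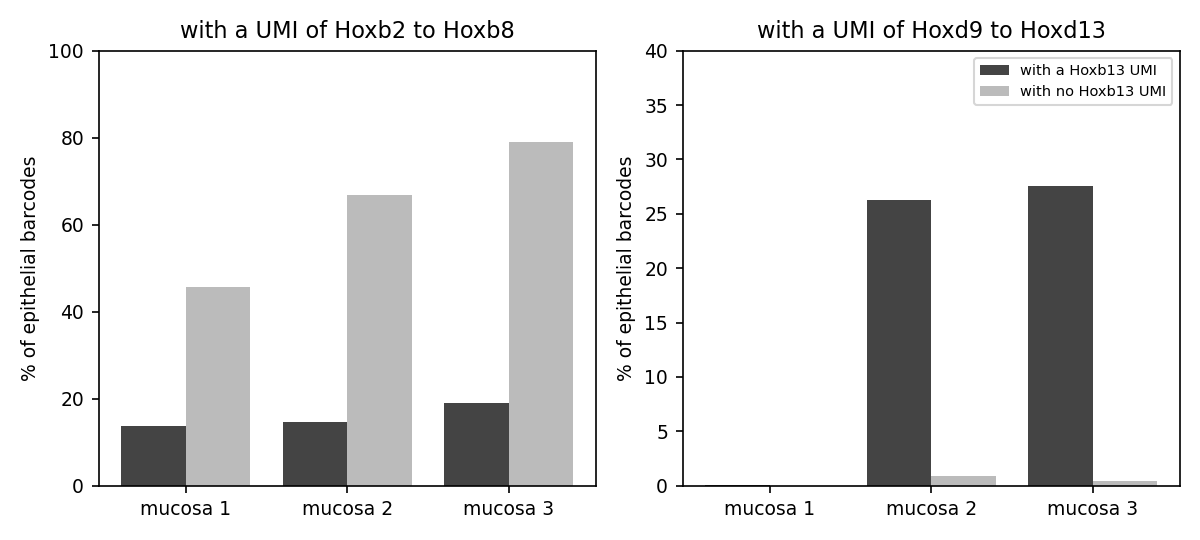
Share of mucosa epithelial barcodes with a UMI of Hoxb2 to Hoxb8 (left) or of Hoxd9 to Hoxd13 (right), for barcodes with and without a Hoxb13 UMI, in each mucosa library. The left bars fall from 45.6% to 79.1% without Hoxb13 to 13.6% to 19% with it, and the right bars do the reverse in mucosa 2 and 3 and are near 0 in mucosa 1.

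Tumors were then compared with mucosa in barcodes with a Hoxb13 UMI only, a comparison added after the data were seen. Hoxb2 to Hoxb8 summed to 9.5, 24.7 and 38.3 CPM in such mucosa barcodes and to 1.35 to 10.7 CPM in tumors. The lowest mucosa library thus lay within the range of the tumors here. The log2 fold change of Hoxb4 was -2.89 (adjusted p = 0.000266) and that of Hoxb7 was -2.57 (adjusted p = 0.00525), smaller than over all epithelial barcodes. Hoxa9 changed by 1.39 (adjusted p = 1.79e-05). Hoxb9 no longer passed (-0.34, adjusted p = 0.211). In all, 3 Hox genes were higher and 8 lower of 24 tested, where 4488 of all 14986 genes were higher and 3901 lower.

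A share of barcodes gave the same picture at equal depth. After thinning to 2000 UMIs, Hoxa9 was found in 6.92%, 2.6% and 2.02% of mucosa 1, 2 and 3 epithelial barcodes and in 14.6% to 22.8% of those of tumors, against 11.2% to 52.1% and 54.3% to 67.6% with all UMIs. Hoxb7 was found in 2.15%, 7.96% and 9.6% of thinned mucosa barcodes and in 0 to 0.963% of thinned tumor barcodes. With all UMIs the immune barcodes, which serve as a background, had Hoxa9 in 0.212% to 0.876% of tumor barcodes, at median depths of 3502 to 4624 UMIs against 9375 to 15849 in tumor epithelium.

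In immune barcodes, Hoxb4 was the leading Hox gene and no member was higher in tumors. Of 11 Hox genes tested, 0 rose and 4 fell (Hoxd4, Hoxb7, Hoxb9 and Hoxa7), where 64% of all genes passed, 33.8% higher and 30.2% lower. All tumors lay below all mucosa libraries for 3 members (43.1% of all genes did so) and above them for 0 (17.3% of all genes). At an unadjusted p under 0.05 the number higher was also 0, and 0 by DESeq2. Hoxb4 stood at 5.97, 16.7 and 7.77 CPM in mucosa, on 45, 28 and 34 UMIs, and at 4.3 to 7.39 CPM in tumors. Its fold change after TMM scaling was -0.02 (SE 0.23, adjusted p = 0.949). Scaling by totals alone, added after the data were seen, moved the median of all genes from 0.06 to -0.57 and that of Hoxb4 to -0.66 (adjusted p = 0.0311). Hoxd4 fell most reliably, from 1.46, 2.38 and 2.29 CPM in mucosa to 0 to 0.267 CPM in tumors, on 25 mucosa UMIs in all (-3.50, SE 0.57, adjusted p = 6.42e-05). Hoxb7 (-3.68, SE 0.66, adjusted p = 0.000168) and Hoxb9 (-3.25, SE 0.68, adjusted p = 0.000657) were nearly absent from mucosa 1, with 2 and 4 UMIs. Without mucosa 1 the number of Hox genes lower in tumors was 6 of 15 (3849 of all 15064 genes), and the changes were -4.35 for Hoxb7 and -3.90 for Hoxb9. Without mucosa 2 they were -3.03 and -2.09. Hoxa7 was at 3.18, 6.55 and 5.03 CPM in mucosa and 1.26 to 2.1 CPM in tumors (-0.85, SE 0.24, adjusted p = 0.00593). The 8 epithelial markers, all detected, summed to 211 to 1778 CPM in mucosa immune barcodes and 46.7 to 120 CPM in tumor immune barcodes. The immune makeup differed as well, with 3 T cell markers at 2494 to 3239 CPM in mucosa and 127 to 398 CPM in tumors, and 3 neutrophil markers at 1221 to 2176 and 44906 to 64163 CPM. The part of this makeup in the immune differences was not tested, apart from the T cell gate, where 1 Hox gene could be tested and 0 passed. In immune barcodes with no keratin or Epcam UMI, Hoxd4 (-3.22, adjusted p = 0.00105) and Hoxb9 (-2.69, adjusted p = 0.00435) still passed, Hoxa7 did not (-0.49, adjusted p = 0.238), and Hoxb7 was not tested.

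The difference of differences was tested with both kinds of barcodes in the same fit. It passed for 7 of 27 Hox genes, where 49.8% of all genes passed. Epithelium moved further up than immune barcodes, or less far down, for Hoxa9 (1.69, adjusted p = 0.0226), Hoxb13 (1.76, adjusted p = 0.00959) and Hoxb9 (1.92, adjusted p = 0.00782). It moved further down for Hoxb2 (-6.79, adjusted p = 0.000187), Hoxb3 (-4.88, adjusted p = 0.000284), Hoxb4 (-4.53, adjusted p = 1.96e-06) and Hoxb5 (-2.24, adjusted p = 0.0216). With no keratin or Epcam UMI in the immune barcodes the test passed for 5 of 25 genes, where 7673 of all 16545 genes passed. These were Hoxb9, Hoxb5 (-8.20), Hoxb4, Hoxb3 and, in addition, Hoxb8 (-7.06, adjusted p = 0.0287, against -1.34 in the main fit). Hoxa9 (0.98, adjusted p = 0.244) and Hoxb13 (1.37, adjusted p = 0.0631) did not pass there and Hoxb2 was not tested. Hoxb2, Hoxb5 and Hoxb8 did not pass the filter on low counts in immune barcodes alone. The size of their differences is therefore uncertain. Without mucosa 2 the test of the difference passed for 3 Hox genes, where 7792 of all 17283 genes passed. The calls of Hoxa9, Hoxb13 (1.07) and Hoxb9 (1.13) were lost there, Hoxb2 was not tested and Hoxb3 was at -5.86. Without mucosa 3 the calls of Hoxa9 and Hoxb5 were lost, Hoxb4 was at -3.93 and Hoxb2 at -5.35. Without mucosa 1 the call of Hoxb5 was lost, Hoxa10 passed (3.71, adjusted p = 0.00261), and Hoxa9 was at 2.93, Hoxb13 at 2.55 and Hoxb9 at 2.71.

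Hoxb4 in tumors was found in leukocytes more than in tumor epithelium. Pooled over the 10 tumors it was at 9.11 CPM in monocytes and macrophages (1019 UMIs, 5.91 to 12.2 CPM per tumor), 6.7 CPM in T cells (166 UMIs), 6.8 CPM in B cells (45 UMIs), 6.06 CPM in mast cells (21 UMIs) and 0.852 CPM in neutrophils (60 UMIs), against a mean of 0.466 CPM per tumor in epithelium. Hoxb3 was at 1.22 CPM in monocytes and macrophages and at most 0.866 CPM in the other 4 leukocyte gates. Mast cells had 8.66 CPM of Hoxa7 on 30 UMIs and 3.75 CPM of Hoxa5 on 13 UMIs. Hoxd1 was at 1.45 CPM in T cells on 36 UMIs, with no UMI in the B cell, mast cell, neutrophil or monocyte and macrophage gates. Hoxb13, at 210 CPM in tumor epithelium, was at 0.577 to 2.27 CPM in these leukocyte gates. These levels are descriptions of pooled barcodes and carry no test.

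**Figure D5:**
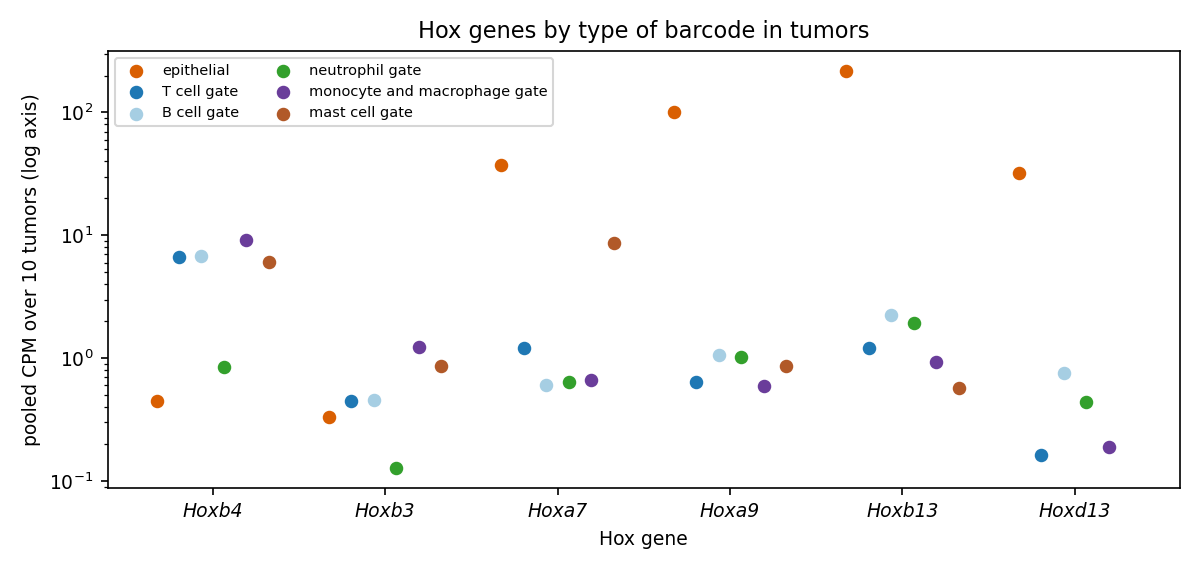
Pooled level over the 10 tumors, in CPM on a log axis, of 6 Hox genes in epithelial barcodes and in 5 leukocyte gates. Hoxb4 was at 9.11 CPM in monocytes and macrophages and lowest in epithelium, whereas Hoxa7, Hoxa9, Hoxb13 and Hoxd13 were highest in epithelium. Hoxd13 has no point for mast cells, which had 0 UMIs of it.

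Only 142 stromal barcodes were found in tumors, 60 of them in tumor 5 and 2 to 19 in each other tumor, and 1 in mucosa. Pooled over tumors, these had 62 UMIs of Hoxa10 (36.4 CPM), 61 of Hoxb2 (35.8 CPM), 42 of Hoxa7 (24.7 CPM), 35 of Hoxa11 (20.6 CPM), 31 of Hoxa13 (18.2 CPM) and 13 of Hoxb4 (7.63 CPM), and no Hoxb13, which allows up to 1.76 CPM. Hoxb2 was thus seen in tumor stroma while tumor epithelium had at most 4 UMIs per library.

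Among the Hox cofactors of the TALE family, 3 of 8 tested rose in tumor epithelium and 1 fell, where 33.3% of all genes were higher and 30% lower. Meis2 was at 0.0145 to 0.0624 CPM in mucosa and 2.35 to 14.4 CPM in tumors (log2 fold change 6.95, SE 0.67, adjusted p = 2.23e-06). Meis1 rose to a low level, 0.518 ± 0.371 CPM against at most 0.0104 CPM in mucosa (adjusted p = 0.00013), as did Pbx4 (2.44, adjusted p = 3.08e-05). Pbx2 changed by -0.30 (adjusted p = 0.00142). The median of the list was 0.18, against 0.03 over all genes.

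The ParaHox and regional genes changed in both directions, 3 of 7 higher and 3 lower, beside the same 33.3% and 30% of all genes. Cdx2, the master regulator of intestinal identity, was at 167 to 223 CPM in mucosa and 3.05 to 45.4 CPM in tumors (9.98 ± 12.7 against 202 ± 30.2 CPM, log2 fold change -4.59, SE 0.61, adjusted p = 2.51e-05). Cdx1 fell from 184 ± 17.4 to 79.2 ± 25.8 CPM (-1.44, adjusted p = 0.000179). Onecut2 was at most 0.0731 CPM in mucosa and 35.8 to 264 CPM in tumors (10.93, SE 1.01, adjusted p = 1.5e-06). Sox2, a regulator of foregut identity, had no UMI in mucosa epithelium and 0.0853 to 2.34 CPM in tumors (adjusted p = 0.00242), and Gata5 rose as well (3.86, adjusted p = 2.32e-06). The list had a median of -0.11.

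Of the MLL and trithorax genes, 9 of 13 rose and 1 fell, and of the Polycomb genes 9 of 21 rose and none fell at an adjusted p under 0.05 in edgeR, where 33.3% of all genes were higher and 30% lower. The H3K27 demethylase Kdm6b changed most of the first list (1.54, adjusted p = 5.1e-05, 76.3 ± 20.5 against 22.1 ± 0.0882 CPM), followed by Mllt3 (0.95, adjusted p = 1.08e-05), and Dpy30 fell (-0.78, adjusted p = 0.000347). The Polycomb readers Cbx6 (1.76) and Cbx2 (1.47) rose, whereas the core members Ezh2 (0.33, adjusted p = 0.0942) and Suz12 (-0.09, adjusted p = 0.476) did not pass. The medians were 0.55 and 0.21. In the retinoic acid list 8 of 12 rose and 3 fell, with a median of 2.80. The receptor Rarb was at most 0.0312 CPM in mucosa and 2.18 to 27.3 CPM in tumors (9.31, adjusted p = 1.07e-05), and the retinol receptor Stra6 (8.26, adjusted p = 3.12e-07) and the retinol dehydrogenase Rdh10 (2.32, adjusted p = 1.3e-07) rose. Aldh1a1, which makes retinoic acid, was at 5.84 to 62.8 CPM in mucosa and 0.323 to 3.3 CPM in tumors (-5.80, adjusted p = 2.59e-06). The related enzymes Aldh1a3 (4.17, adjusted p = 0.000518, 48.0 ± 44.9 against 2.30 ± 0.540 CPM) and Aldh1a2 (4.42, adjusted p = 0.0046) rose.

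Other genes of the clusters followed their neighbours in part. Evx2, next to Hoxd13, was at 1.51 ± 1.37 CPM in tumors and 0.0799 ± 0.074 CPM in mucosa (3.92, adjusted p = 0.0424). Its tumors ranged from 0 to 3.2 CPM and overlapped the mucosa (0 to 0.146 CPM). Over the tumors it followed Hoxd13 (Pearson r = 0.97). Evx1, next to Hoxa13, was at 13.4 ± 3.65 CPM in tumors and 1.03 ± 1.05 CPM in mucosa (3.48, adjusted p = 5.8e-05). The noncoding RNA Hotairm1 rose (2.08, adjusted p = 0.00256), whereas Hoxaas3 fell from 49.6 ± 21.7 to 9.96 ± 4.43 CPM (-2.54, adjusted p = 2.7e-05). Hoxa11os, at 45.8 ± 11.5 CPM in tumors, did not pass (-0.01, adjusted p = 0.984). Over the list, 3 of 7 tested rose and 1 fell (33.3% and 30% of all genes), with a median of 0.89. In immune barcodes, where 33.8% of all genes were higher and 30.2% lower, the numbers higher and lower were 3 and 2 of 8 for the TALE list, 0 and 4 of 5 for the ParaHox and regional list, 4 and 5 of 13 for MLL and trithorax, 3 and 13 of 21 for Polycomb, 8 and 0 of 11 for retinoic acid and 1 and 2 of 3 for the cluster list.

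Across the 10 tumors, the non-Hox genes with a pattern most like that of Hoxb13 were Gpam (Pearson r = 0.95 on log2(CPM + 1)), Rdx (0.94), Steap1 (0.94), Chodl (0.93) and Gm11535 (0.92). Hoxa11 had the strongest negative value among the members tested (-0.94). All of these share tumor 6, the only tumor low in Hoxb13. For Hoxd13, added after the data were seen, the closest non-Hox genes were Plpp1 (0.97), Evx2 (0.97), Defa21 (0.97), Mettl7a2 (0.96) and Defa36 (0.96). The Defa genes have near-identical copies between which reads may be shared. Among the Hox genes, Hoxd11 had 0.997, Hoxd8 had 0.96, Hoxd12 had 0.79 and Hoxa9 had -0.92. These are descriptions over 10 libraries that fall into separate groups of high and low values.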

How the data were processed

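Single-cell libraries of 10 tumors and 3 mucosa samples were made with a 3' kit of 10x Genomics. The deposited matrices hold raw UMI counts per gene and barcode, which the authors made with Cell Ranger 6.0.0 and mm10 per the file headers and the submitters' processing notes. Barcodes with at least 500 UMIs, 200 genes and under 25% mitochondrial UMIs were kept, and no doublet caller was run. Counts were summed per library and kind of barcode and tested with edgeR 4.0.16 (TMM scaling, filterByExpr, quasi-likelihood test, group as the only term, Benjamini-Hochberg adjustment over all genes, threshold 0.05) in R 4.3.3, after tests on simulated data. DESeq2 1.42.0 was an alternative. Sums were made in Python 3.11.15 with pandas 2.3.3. CPM divides by the summed UMIs without TMM factors. A count of 0 allows up to 3 counts. Each tumor counted as a sample although tumors of a mouse are not independent animals. The p-values thus measure the spread between libraries within a tissue, and not between animals. With the tumors of each mouse summed, the spread between tumors of a mouse does not enter. Mucosa and tumors of a mouse are tied by the labels, and their deviations from the group means correlated (Pearson's r over 15476 genes) at 0.200 for mouse A, 0.0888 for mouse B and 0.231 for mouse C. Named genes were the members that passed, those with the largest changes and highest levels, and up to 5 genes of each list (largest called changes, highest levels), while Gata5 and Hotairm1 were added after their values were seen. Some genes that the counts include are not reported here by name. The members, lists and tests were chosen with earlier results of these data known. Positions are from GENCODE vM21 (GRCm38).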

Additional observations from a re-analysis of the deposited data

Results flagged for a closer look

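Of 37 sets of 10 tumor values checked, 26 in epithelial and 11 in immune barcodes, 9 had a tumor far from the other 9 by Dixon's criterion. Its rate of about 1 of 20 sets holds for independent values with a normal spread. CPM of genes that vary together are not such values, so that an excess over this rate was not tested. All 9 were in epithelial barcodes. Tumor 6 was the highest for Hoxa2 (1.88 CPM), Hoxa3 (12.4 CPM), Hoxa7 (71.4 CPM), Hoxa10 (81.1 CPM), Hoxa11 (19.3 CPM) and Hoxa13 (22.5 CPM) and the lowest for Hoxb13 (16.1 CPM). Tumor 8 was the highest for Hoxb5 (1.06 CPM) and Hoxb3 (1.11 CPM), both still below every mucosa library.

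The tumor difference was not the same in epithelial and immune barcodes for 7 of 27 Hox genes in the edgeR test of the difference. Over all genes, 49.8% passed that test. The epithelial minus immune log2 fold change was 1.69 for Hoxa9, 1.76 for Hoxb13, 1.92 for Hoxb9, -2.24 for Hoxb5, -4.53 for Hoxb4, -4.88 for Hoxb3 and -6.79 for Hoxb2. Hoxb5 and Hoxb2 did not pass the filter on low counts in immune barcodes alone.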

How the results depend on the processing

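Against 6 Hox genes higher in tumor epithelium, 11 of 27 passed with the tumors of each mouse summed and the mouse as a replicate block (4938 of all 16431 genes). The number was 3 of 24 in the stem gate (4879 of all 14725 genes) and 3 of 24 in Hoxb13 barcodes (4488 of all 14986 genes). With the mouse as a block alone, 4 were higher and 11 lower of 26, where 5293 and 4823 of all 15476 genes were. With a library left out, 2 to 8 Hox genes were higher and 11 to 13 lower. Over all genes, 4500 to 5340 were then higher and 4059 to 4867 lower, of 15379 to 15789 tested. In immune barcodes, 4 were lower, and 7 of 35 without a filter on low counts (4259 of all 22490 genes). In barcodes with no epithelial UMI it was 2 of 9 (3893 of all 13938 genes). In the T cell gate, where 1 Hox gene could be tested, it was 0 (1930 of all 10190 genes). With a library left out it was 4 to 6, where 3849 to 4574 of 14582 to 15064 genes were lower. The difference between compartments passed for 7 genes, and for 3 to 7 with a library left out, where 7225 to 8684 of 16896 to 17306 genes passed. The change of Hoxa11 in epithelium, 0.08, was -0.32 with the mouse as a block, -0.10 under 10% mitochondrial UMIs, -0.11 in the cycling gate, -0.19 in the stem gate and -0.84 to 0.91 with a library left out. In Hoxb13 barcodes Hoxa13 was at -0.39 and Hoxb13 at -0.39, but these barcodes were chosen by Hoxb13 itself, so that its value there is no test of it. Hoxb4 in immune barcodes, -0.02, was 0.0079 with RLE scaling, 0.016 by DESeq2, 0.045 without a filter and -0.29 to 0.40 with a library left out. The causes were not tested. The stem gate, Hoxb13 barcodes and immune totals were settings added after the data were seen. The immune sums of mucosa limit what could be tested there.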

Other observations

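The mucosa barcodes with Hoxb13 and no Hoxb2 to Hoxb8 UMI were set beside those with Hoxb2 to Hoxb8 and no Hoxb13 UMI, a comparison chosen after the data were seen, described with no test. Genes were taken at 100 CPM or more in all 3 libraries and ranked by the smallest of the 3 ratios. Mptx1 was at 633, 2171 and 2341 CPM in the Hoxb13 barcodes of mucosa 1, 2 and 3, with log2 ratios to the others of 8.01, 6.99 and 8.23. Sval1, B3gnt7, Spink1 and Rep15 followed. In the reverse direction the antimicrobial lectin Reg3g was at 299, 2480 and 1501 CPM in the Hoxb2 to Hoxb8 barcodes and at 91.8, 186 and 59.2 CPM in the Hoxb13 barcodes, and Chgb, Sult1a1 and Dmbt1 were also among the leading genes. In tumor epithelium Mptx1 ranged from 0 to 75.6 CPM, B3gnt7 from 4.22 to 84.8 CPM and Rep15 from 5.8 to 39.6 CPM. Sval1 ranged from 41.4 to 731 CPM and Spink1 from 45 to 897 CPM. Of the reverse set, Reg3g ranged from 83.4 to 899 CPM, Dmbt1 from 111 to 832 CPM, Chgb from 0.966 to 36.1 CPM and Sult1a1 from 1.69 to 10.5 CPM.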
